A study of Mus musculus with 6 samples.

Results

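The collagen chain genes were the 42 genes, of 18193 measured, whose single symbol in the platform annotation had the form Col, a number, a and a number. They were covered by 82 probe sets, and each gene was represented by its brightest probe set on average. Of the 42 genes, 11 encode fibrillar chains, 6 encode the type IV chains of basement membranes, 9 encode fibril-associated chains (FACITs), and 16 encode other chains. Values are array intensities on a linear scale. Granulosa cells, the somatic cells that surround the oocyte in the ovarian follicle, were measured on 6 arrays in 3 groups of 2. The first group came from wild-type mice at day 25 of age. The second came at day 25 from mice carrying Foxo1 f/-, Foxo3 f/- and Amhr2-cre, called young mutants here (dKO in the plots), and the third from mice of that genotype at 2 months, called older mutants. FOXO1 and FOXO3 are forkhead transcription factors, and the Cre recombinase is expressed from the Amhr2 promoter, which is active in granulosa cells. The strain background was a mix of FVB and C57BL/6 throughout. The labels do not say whether wild-type mice carried floxed alleles, nor whether cells of several animals were pooled, and wild-type cells of 2 months were not analysed here, so age and genotype cannot be told apart when older mutants are set against wild type.

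Collagens are secreted proteins built from 3 chains wound into a triple helix. Fibrillar chains (types I, II, III, V, XI, XXIV and XXVII) assemble into the banded fibres of connective tissue, and FACITs decorate the surface of those fibres. Type IV chains form the sheet-like network of basement membranes, among them the basal lamina that separates granulosa cells from the theca. The remaining chains form beaded filaments (type VI), hexagonal lattices (types VIII and X), anchoring fibrils (type VII), the endostatin-bearing multiplexins (types XV and XVIII) and membrane-spanning collagens (types XIII, XVII, XXIII and XXV).

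Foxo1, a targeted gene, had intensities of 10319 and 7666 in wild type, 904 and 2291 in young mutants, and 126 and 343 in older mutants. The mean of Foxo3, the other target, was 1487 in wild type, 2909 in young mutants and 2178 in older mutants, so its signal was not lower in mutants. Whether its probe set lies in the deleted part was not tested. The array of older mutant replicate 1 correlated with the rest less well (r from 0.964 to 0.979) than they did with each other (0.982 to 0.993). No probe set passed an adjusted p of 0.05 in any comparison by limma (Benjamini-Hochberg over 45037 probe sets, smallest adjusted p 0.367 for young mutants against wild type, 0.712 for older against young mutants, and 0.114 for older mutants against wild type). For single genes the text therefore gives values, log2 differences and whether the arrays of a pair of groups overlapped. With 2 arrays against 2 the exact permutation test cannot give a p below 0.333.

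Granulosa cells were represented by 9 markers, all of which lay at or above the median of all probe sets on average. So did every measured marker of stroma, leukocytes, theca, surface epithelium and oocytes, so that level does not set granulosa cells apart. Foxl2, a transcription factor of granulosa cells, ranged from 6165 to 13167. The summed intensity of the 9 granulosa markers was 94646 and 106436 in wild type, 111986 and 104020 in young mutants, and 111158 and 97879 in older mutants. Markers of other ovarian cells were measured too, and 10 of the 12 endothelial markers reached that median. Summed over 12 stromal and smooth muscle markers, intensity was 7655 and 6115 in wild type, 11370 and 14891 in young mutants, and 25417 and 10991 in older mutants. The sums over 12 endothelial markers were 1250 and 1479, 1560 and 2210, and 4444 and 2345 in the same order, and over 10 leukocyte markers 1781 and 3259, 8928 and 4884, and 17057 and 5330. The sums over 4 theca and interstitial markers were 6636 and 4228, 4790 and 11194, and 19729 and 20702, and over 6 surface epithelium markers 1250 and 1025, 1257 and 1432, and 3574 and 1464. Oocyte markers, 10 in number, ran otherwise, with 31776 and 19487, 46506 and 67429, and 6397 and 37262. Stromal cells and endothelium are known sources of many collagens. In these bulk samples fewer cells of a type and less RNA per cell cannot be told apart.

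**Figure D1:**
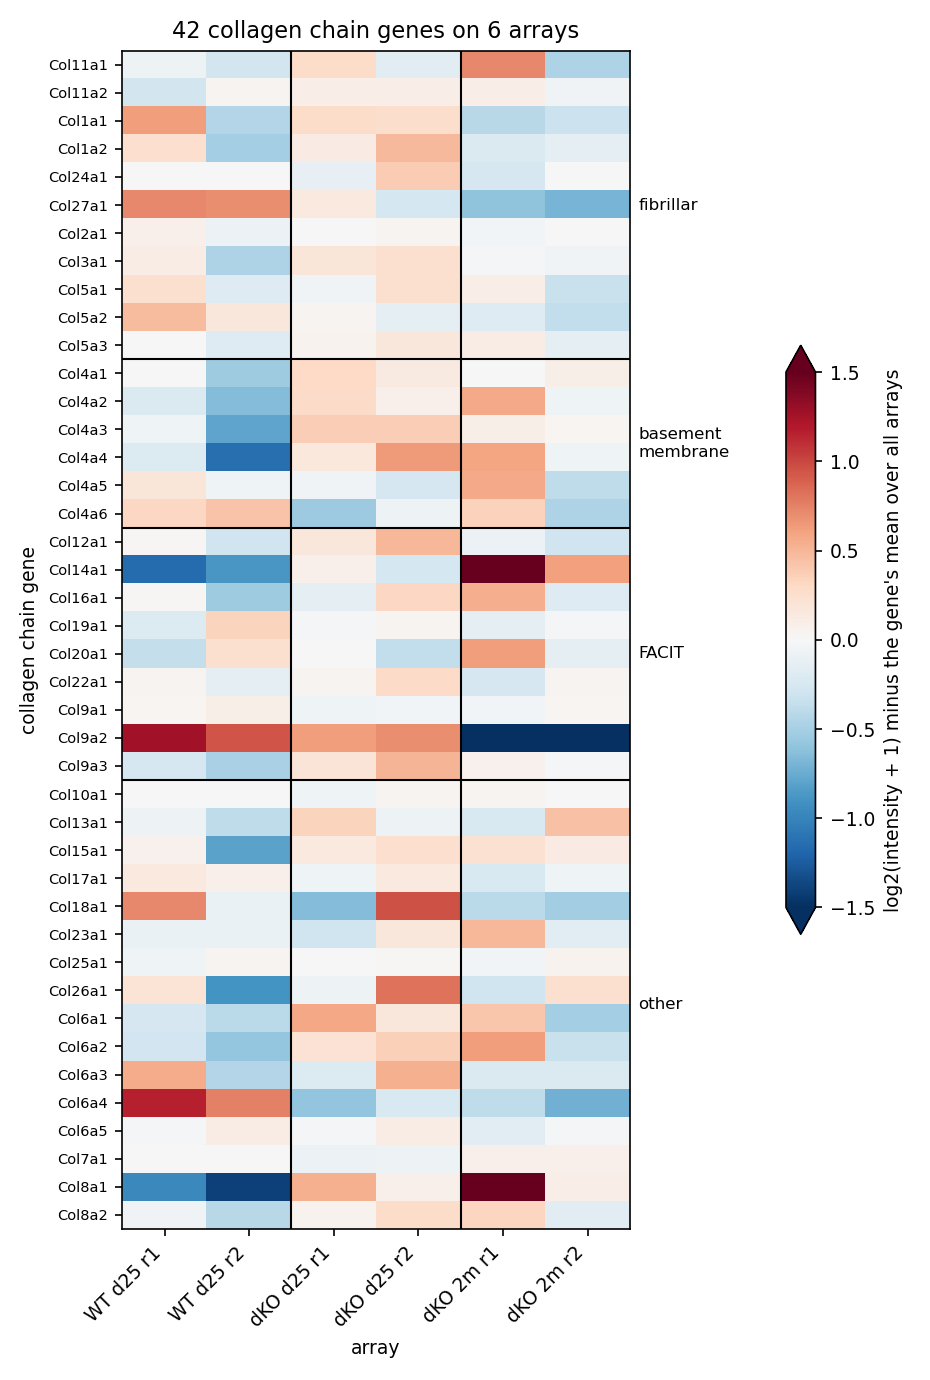
The heat map shows each of the 42 collagen chain genes (vertical axis, by structural class) on the 6 arrays (horizontal axis) as log2(intensity + 1) minus the gene's mean over all arrays, with colours running to 1.5 in either direction. Col9a2 stands out low on both older mutant arrays, Col6a4 and Col27a1 high in wild type, and Col14a1 and Col8a1 low in wild type, whereas the column of wild-type replicate 2 is low for most type IV chains.

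Of the 42 collagen chain genes, 23 spanned less than 2-fold over all 6 arrays. In mean level, 28 had a mean at or above the median of all probe sets on the log2 scale and 14 lay below it. Of those 14, 13 spanned less than 2-fold over all 6 arrays. Col10a1, a chain of hypertrophic cartilage, stayed between 26 and 28, Col2a1, the chain of cartilage fibrils, between 32 and 36, and Col6a5 between 9 and 11. Only 3 genes spanned more than 4-fold on the log2(value + 1) scale, namely Col9a2 (9.44-fold), Col8a1 (8.33-fold) and Col14a1 (6.77-fold). Between the wild-type replicates the median absolute log2 difference was 0.311 over collagen genes and 0.144 over all genes, which is the background for the comparisons with wild type. Wild-type replicate 2 held the lowest value of 18 of the 41 collagen genes with a single lowest array, or 43.9%, against 14.63% of all genes.

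Young mutants were set against wild type to compare the genotypes at 1 age. Of the 42 collagen genes, 28 had higher means in young mutants, 13 had lower means and 1 was equal. Of all genes, 54.7% had higher means. The median log2 difference was 0.19 over the collagen genes and 0.03 over all genes. The groups did not overlap for 15 collagen genes that were higher and 7 that were lower, where 26.4% and 19.5% of all genes did not overlap in those directions. By limma 0 passed over all probe sets, and at an unadjusted p under 0.05 there were 4 higher (Col4a3, Col4a4, Col8a1 and Col9a3) and 2 lower (Col6a4 and Col27a1), where 4.88% and 3.43% of all genes were so. Each fit without 1 array has its own share of all genes. Without wild-type replicate 1 there were 9 higher and 2 lower, with 2.89% and 2.09% of all genes, and without wild-type replicate 2 there were 3 and 4, with 3.09% and 2.45%. Dropping young mutant replicate 1 gave 2 and 2, with 3.61% and 1.61%, and dropping young mutant replicate 2 gave 1 and 2, with 3.11% and 2.63%. Dropping either older mutant array, which enters only through the pooled spread, gave 6 and 4, with 9.04% and 6.08%. The count of higher means lay between 25 and 32 when single arrays were left out. More than 2-fold were 2 higher, Col4a4 and Col8a1, and 1 lower, Col6a4, where 2.88% and 0.715% of all genes were.

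The type IV chains gave the highest class median at day 25, 0.55, against 0.17 for fibrillar chains, 0.22 for FACITs and 0.07 for other chains; the differences between classes were not tested. Without wild-type replicate 2 the type IV median was 0.31 and the fibrillar median 0.06, and omitting wild-type replicate 1 they came to 0.80 and 0.29. The medians of FACITs and other chains were 0.09 and -0.02 without young mutant replicate 2. The 6 chains split by gene pair. The chains alpha1 to alpha4 were higher in young mutants with no overlap, and alpha5 and alpha6 had lower means.

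Col4a1 and Col4a2 encode the chains of the ubiquitous alpha1-alpha1-alpha2 network. Col4a1 was 3378 and 2325 in wild type, 4163 and 3699 in young mutants, and 3378 and 3595 in older mutants. Both young mutant arrays lay above both wild-type arrays, and the log2 difference was 0.49 ± 0.20 (SE), adjusted p = 0.634 by limma, and 0.22 without wild-type replicate 2. Col4a2 was 1133 and 836 in wild type, 1609 and 1389 in young mutants, and 1954 and 1264 in older mutants. All 4 mutant arrays were above wild type, with 0.62 ± 0.27 at day 25 and 0.40 without wild-type replicate 2. The other Col4a1 probe set, at 836 and 654 in wild type and 1040 and 977 in young mutants, ran the same way there. In older mutants it was 1242 and 962, above both wild-type arrays, where the brightest overlapped.

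The 2 genes lie head to head on chromosome 8, and their promoter windows are shown because they share bases. The windows are RefSeq sequences of GRCm38.p6, from 250 bases before to 50 after the annotated start, written 5′ to 3′ on the strand of the gene. Capitals mark matches on either strand. The motif known from Sp1 sites was searched as GGGCGG. The motif bound by NF-Y was searched as CCAAT. The forkhead core was searched as TGTTTAC. Col4a1 (chr8:11312777-11313076, minus strand) and Col4a2 (chr8:11312555-11312854, plus strand) overlap by 78 bases, and their annotated starts are 21 bases apart.
Col4a1: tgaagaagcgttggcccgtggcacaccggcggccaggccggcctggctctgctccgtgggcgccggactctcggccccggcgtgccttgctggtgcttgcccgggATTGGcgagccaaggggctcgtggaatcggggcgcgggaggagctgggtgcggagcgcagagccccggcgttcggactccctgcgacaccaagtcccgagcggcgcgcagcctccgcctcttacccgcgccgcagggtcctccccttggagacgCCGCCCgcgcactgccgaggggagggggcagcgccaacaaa
Col4a2: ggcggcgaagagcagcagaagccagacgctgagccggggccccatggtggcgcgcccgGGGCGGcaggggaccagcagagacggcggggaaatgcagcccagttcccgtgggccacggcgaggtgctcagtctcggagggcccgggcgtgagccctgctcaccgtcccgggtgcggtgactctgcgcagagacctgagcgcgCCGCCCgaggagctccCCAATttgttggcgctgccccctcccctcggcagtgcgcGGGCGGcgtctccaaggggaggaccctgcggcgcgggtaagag
Each window holds 1 CCAAT match, and the 78 shared bases hold 1 GGGCGG match. Neither window holds a TGTTTAC match, which says only that these letters are not there.

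Col4a3 and Col4a4, neighbours on chromosome 1, encode chains of the alpha3-alpha4-alpha5 network known from kidney, lung and cochlea. Col4a3 was 185 and 111 in wild type, 249 on both mutant arrays at day 25, and 205 and 197 in older mutants. The mutant arrays of both ages lay above wild type, and the day 25 difference was 0.79 ± 0.25, adjusted p = 0.564, and 0.43 without wild-type replicate 2. Col4a4 was 592 and 312 in wild type, 759 and 1066 in young mutants, and 1031 and 653 in older mutants. Its day 25 difference was the largest of the class, 1.06 ± 0.41 or 2.09-fold, and was 0.60 without wild-type replicate 2. A second Col4a4 probe set gave 571 and 324 in wild type against 751 and 980 in young mutants. The second Col4a3 probe set, at 67 and 47 against 73 and 96, and the third of Col4a4, at 72 and 50 against 81 and 99, had the same order.

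Col4a5 and Col4a6 are neighbours on the X chromosome, and the alpha6 chain is restricted to a few basement membranes. Col4a6 was 222 and 241 in wild type, 123 and 170 in young mutants, and 229 and 130 in older mutants. The day 25 groups did not overlap, with a log2 difference of -0.67 ± 0.32, adjusted p = 0.655, or -0.44 without young mutant replicate 1, and the older mutants overlapped both other groups. A second probe set gave 147 and 176 in wild type against 99 and 132 in young mutants. Col4a5 was 2244 and 1889, 1898 and 1660, and 2933 and 1522 in the same order, with overlap between all groups.

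**Figure D2:**
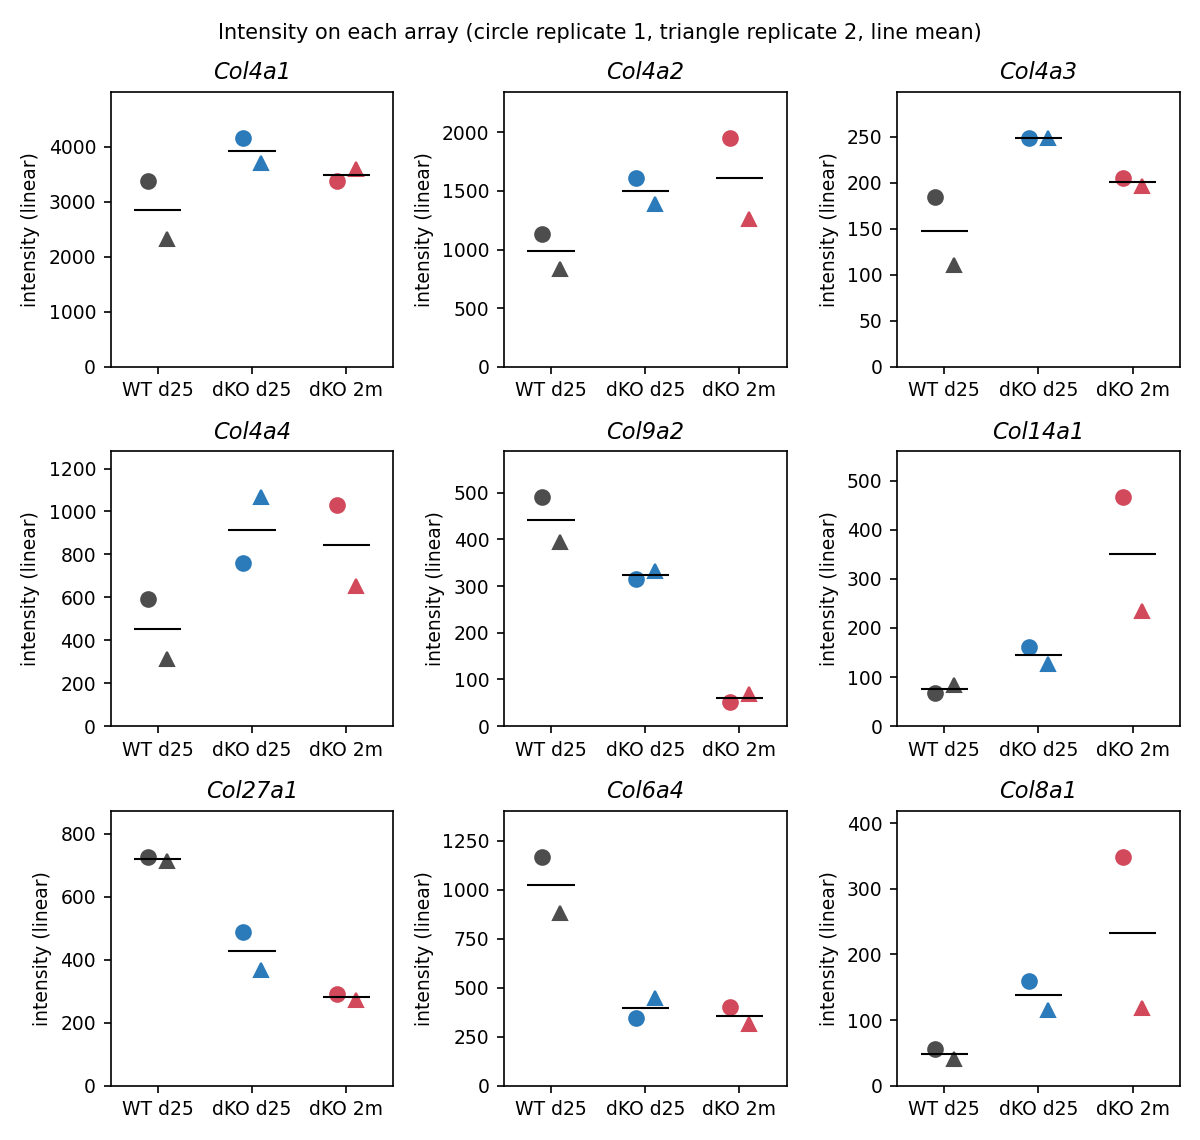
Intensity on a linear scale (vertical axes from 0) is plotted for 9 collagen chain genes in the 3 groups, with circles for replicate 1, triangles for replicate 2 and lines at the group means. Col9a2 was 316 and 332 in young mutants and 51 and 69 at 2 months, whereas the 2-month replicates of Col14a1 and Col8a1 lay far apart.

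Among the other chains at day 25, the genes of the beaded-filament type VI collagen gave the widest spread. Col6a4, which encodes a chain that can take the place of alpha3, was 1168 and 880 in wild type, 344 and 446 in young mutants, and 399 and 316 in older mutants. Both mutant groups lay below wild type, and the log2 difference was -1.37 ± 0.23 at day 25, or 2.58-fold lower, adjusted p = 0.474. It lay between -1.57 and -1.17 when single arrays were left out. The second Col6a4 probe set was dim, between 24 and 27 on all arrays, and its log2 difference at day 25 was -0.03.

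Col6a1 and Col6a2, neighbours on chromosome 10 that encode the alpha1 and alpha2 chains, had higher mutant values at day 25. Col6a1 was 2630 and 2366 in wild type, 4685 and 3518 in young mutants, and 4195 and 2191 in older mutants. Col6a2 was 1931 and 1576, 2750 and 3035, and 3642 and 1877 in the same order. Neither gene overlapped at day 25, and the log2 differences were 0.70 ± 0.34 and 0.73 ± 0.34. The older mutants overlapped wild type for both genes. Col6a3, the third chain of the classical trimer, was 1823 and 918 in wild type and 1079 and 1794 in young mutants, with overlap.

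Col6a1 was the only one of 33 collagen genes with a promoter window in the RefSeq table (36 windows, 9 genes without) that held the forkhead letters. TGTTTAC, on either strand, was in 1 of 36 collagen windows, or 2.78%, and in 3.65% of all 32851 windows. The Col6a1 window (GRCm38.p6, chr10:76725995-76726294, minus strand) is shown with that match in capitals, on the opposite strand and starting 211 bases before the annotated start.
Col6a1: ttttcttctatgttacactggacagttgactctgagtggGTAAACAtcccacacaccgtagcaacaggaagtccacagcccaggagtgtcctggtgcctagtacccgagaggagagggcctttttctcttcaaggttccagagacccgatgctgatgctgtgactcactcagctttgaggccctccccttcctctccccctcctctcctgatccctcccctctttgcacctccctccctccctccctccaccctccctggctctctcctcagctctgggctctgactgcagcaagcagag
GGGCGG was in 22 of 36 collagen windows (61.1%) against 35.7% of all windows, and CCAAT in 13 (36.1%) against 37.4%. The collagen windows also had more G and C, with a median of 59.9% against 52.7%.

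Col8a1, a chain of the hexagonal lattice under endothelium and around vessels, was 56 and 41 in wild type, 160 and 116 in young mutants, and 349 and 118 in older mutants. Every mutant array exceeded both wild-type arrays. The log2 difference was 1.49 ± 0.55 at day 25, or 2.81-fold, adjusted p = 0.602, the highest among the brightest probe sets of the collagen genes in that comparison. A second probe set, at 49 and 41, 124 and 91, and 245 and 102, had the same order of group means, and the third stayed between 15 and 17. Its partner Col8a2 was 26 and 20 in wild type and 28 and 33 in young mutants. Endothelial markers were higher in young mutants for 12 of 12 genes, leukocyte markers for 10 of 10 and oocyte markers for 10 of 10. Their part in the Col8a1 values was not tested.

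Of the FACITs at day 25, Col9a3 and Col9a2, which form the type IX trimer with Col9a1, ran in opposite directions. Col9a3 was 72 and 61 in wild type, 99 and 123 in young mutants, and 90 and 85 in older mutants, a day 25 difference of 0.73 ± 0.15, adjusted p = 0.480. All 4 mutant arrays were above wild type, and the second probe set gave 47 and 42 against 57 and 104 at day 25. Col9a2 was lower at day 25 by a log2 difference of -0.44 ± 0.19, with no overlap, or -0.28 without wild-type replicate 1, and Col9a1 stayed between 44 and 49 on all arrays. Col12a1, a FACIT of dense connective tissue, was 175 and 140 in wild type and 194 and 244 in young mutants.

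The fibrillar chains showed 9 higher and 2 lower means in young mutants, and the 2 lower were Col27a1 and Col5a2. Among the 9 were Col2a1, Col5a3, Col11a2 and Col24a1, which lay below the median of all probe sets and had log2 differences of 0.02 to 0.21. Without wild-type replicate 2 the counts were 6 and 5. Col27a1, a fibrillar chain of cartilage and some epithelia, was 727 and 713 in wild type, 489 and 367 in young mutants, and 291 and 271 in older mutants. The 3 groups did not overlap and fell into 1 order. The log2 difference was -0.76 ± 0.16 at day 25, adjusted p = 0.480, and the second probe set, at 715 and 757, 499 and 385, and 277 and 174, kept that order. Col5a2, which regulates the width of type I fibrils, was 998 and 806, 739 and 654, and 629 and 557 in the same groups, again with no overlap. The second Col5a2 probe set kept that order, at 227 and 225, 221 and 198, and 179 and 179. Its day 25 log2 difference was smaller, -0.11 where the brightest gave -0.37.

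On their brightest probe sets the abundant fibrillar chains of stroma overlapped or nearly so between genotypes. Col1a1 was 1094 and 521 in wild type and 852 and 848 in young mutants. Col1a2, its partner in type I collagen, was 8458 and 5002 against 7741 and 10022. Col3a1, the chain of reticular fibres, was 6793 and 4558 against 7084 and 7379, and its lowest mutant value was close to the higher wild-type value. The second Col3a1 probe set, at 435 and 267 against 504 and 573, did not overlap, with a log2 difference of 0.66 where the brightest gave 0.38. The next Col1a2 probe set overlapped, with 0.66 where the brightest gave 0.44. The wild-type replicates of Col1a1 differed by more than 2-fold, which is more than the difference between the genotypes. Stromal and smooth muscle markers were higher in the mutants for 11 of 12 genes on the same arrays, with a median log2 difference of 0.60. Without young mutant replicate 2 that was 8 of 12 and 0.40. The part of these markers in the collagen values was not tested. Col11a1, a minor fibrillar chain, was 3133 and 2734 in wild type, 4005 and 2949 in young mutants, and 5452 and 2400 in older mutants, and its second probe set gave a lower mutant mean at day 25.

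**Figure D3:**
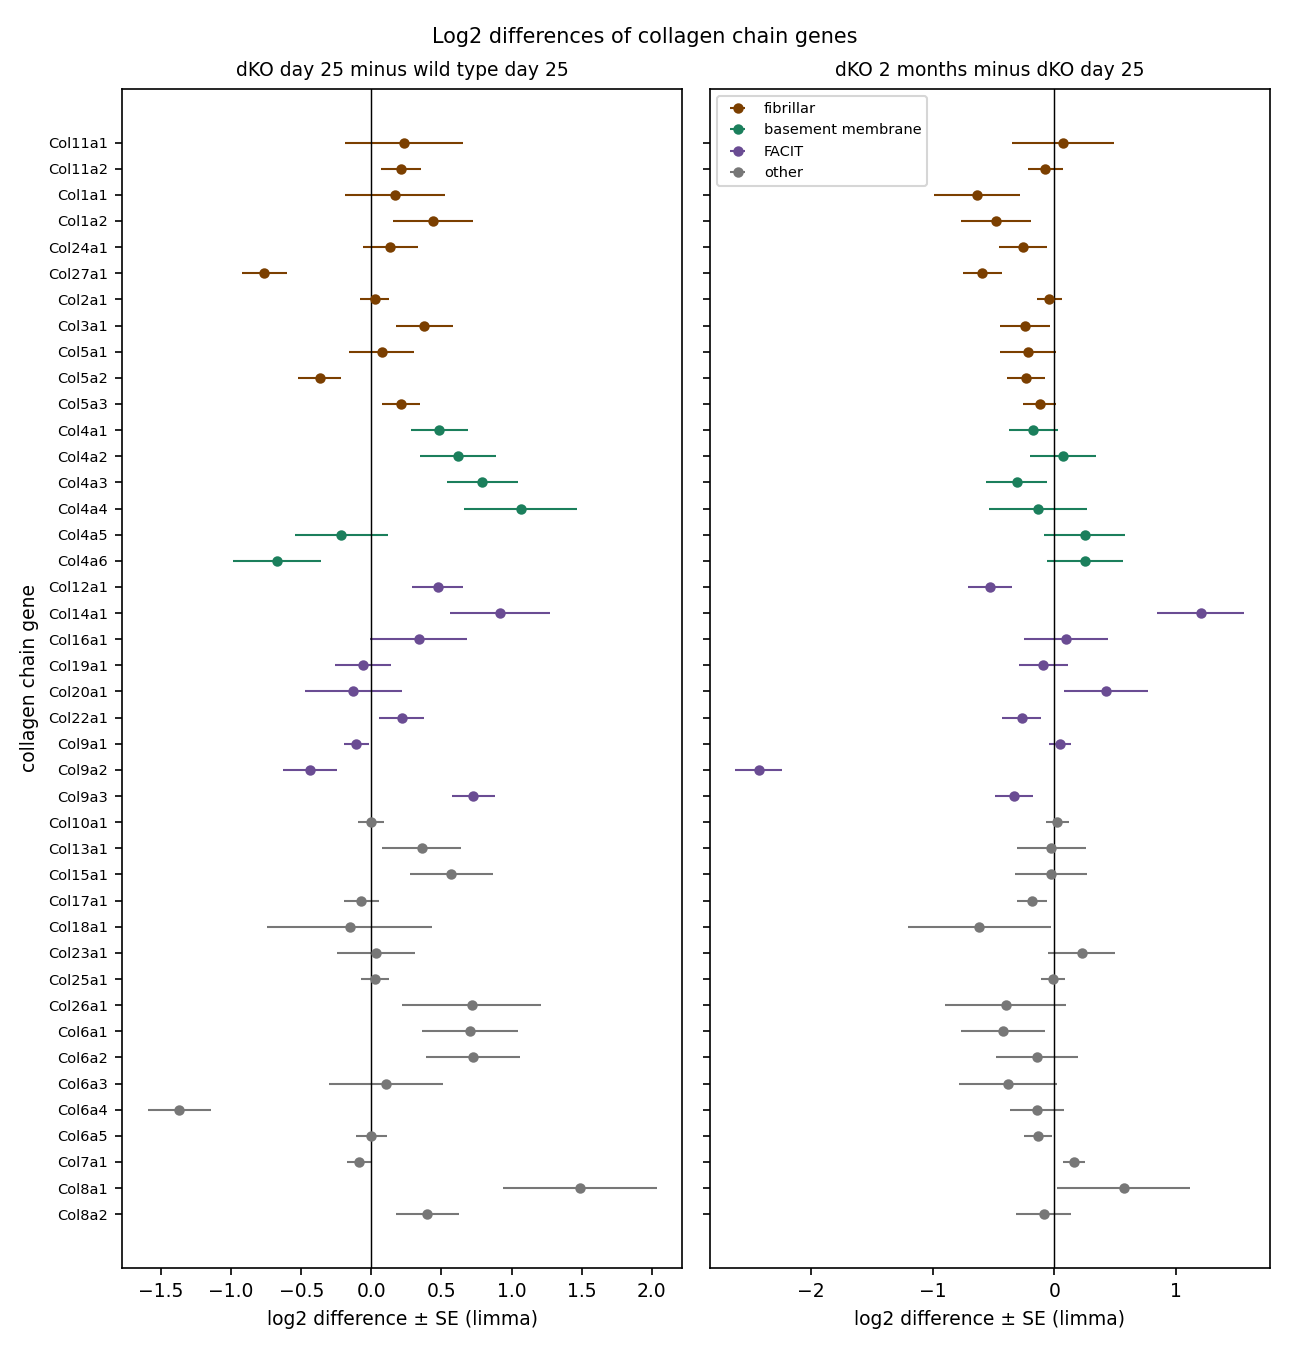
Log2 differences with SE from limma (horizontal axes) are shown for the 42 collagen chain genes, coloured by class, for young mutants against wild type on the left and older against young mutants on the right. Col4a1 to Col4a4 lie to the right of 0 at day 25 with Col4a5 and Col4a6 to the left, and the 2-month panel has Col9a2 at -2.43 and 10 of 11 fibrillar chains left of 0.

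Older mutants were set against young mutants to compare ages within the genotype. Both comparisons share the arrays of young mutants. Foxo1 signal also differed between the mutant ages, at 904 and 2291 in young and 126 and 343 in older mutants. Its part in the differences was not tested. Of the 42 collagen genes, 12 had higher and 30 lower means at 2 months, where 52.9% of all genes had higher and 45.9% lower means. The median log2 difference was -0.13 against 0.02 over all genes. Without older mutant replicate 1 the counts were 7 and 35, and without its replicate 2 they were 19 and 22, with a median of -0.03. No overlap was seen for 2 genes that were higher and 11 that were lower, where 19.7% and 17.0% of all genes did not overlap. By limma 0 passed over all probe sets, and at an unadjusted p under 0.05 there were 1 higher (Col14a1) and 3 lower (Col9a2, Col12a1 and Col27a1), with 3.73% and 2.90% of all genes. Without older mutant replicate 2 these were 3 and 1, with 12.8% and 14.6% of all genes in that fit, and without older mutant replicate 1 they were 1 and 4, with 3.14% and 1.85%. Dropping either wild-type array, which enters only through the pooled spread, gave 0 and 5, with 2.60% and 1.82%. Dropping young mutant replicate 1 gave 0 and 6, with 1.75% and 2.19%, and dropping young mutant replicate 2 gave 0 and 2, with 2.79% and 1.41%. More than 2-fold were 1 higher (Col14a1) and 1 lower (Col9a2), where 1.15% and 3.03% of all genes were.

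Col9a2, the alpha2 chain of type IX collagen, showed the largest difference among the brightest probe sets of the collagen genes. It was 490 and 394 in wild type, 316 and 332 in young mutants, and 51 and 69 in older mutants. The 2-month arrays both lay far below all others. The log2 difference between mutant ages was -2.43 ± 0.19, or 5.38-fold lower, adjusted p = 0.712, and against wild type it was -2.87 ± 0.19, or 7.30-fold lower, adjusted p = 0.123. Leaving out single arrays kept the age difference between -2.64 and -2.21. A single probe set covers the gene. Col9a3, another chain of the same trimer, was 99 and 123 at day 25 and 90 and 85 at 2 months, a log2 difference of -0.33 ± 0.15, or -0.18 without young mutant replicate 2.

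The Col9a2 promoter window is shown because the gene has the largest difference among the brightest probe sets (GRCm38.p6, chr4:121039316-121039615, plus strand).
Col9a2: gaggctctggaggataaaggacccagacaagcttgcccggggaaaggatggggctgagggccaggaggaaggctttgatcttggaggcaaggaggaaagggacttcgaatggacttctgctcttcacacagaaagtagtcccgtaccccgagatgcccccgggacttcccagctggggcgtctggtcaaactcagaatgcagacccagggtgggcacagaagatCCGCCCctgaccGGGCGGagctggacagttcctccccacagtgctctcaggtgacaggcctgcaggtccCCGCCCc
It holds 3 GGGCGG matches, in capitals here on either strand, and no CCAAT or TGTTTAC match.

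Col14a1, a FACIT of stroma and fibroblasts, ran the other way. It was 68 and 83 in wild type, 161 and 127 in young mutants, and 466 and 235 in older mutants. The groups did not overlap and formed 1 rising order, although the older replicates lay far from each other. The log2 difference with age was 1.21 ± 0.36, adjusted p = 0.712, and 0.71 without older mutant replicate 1. The next probe set of the gene gave 35 and 24, 163 and 154, and 778 and 270, with log2 differences of 2.41 at day 25, 1.53 with age and 3.94 for older mutants against wild type. The last of these is larger than any Col9a2 difference, and the first is larger than the Col8a1 difference at day 25. On the linear scale this probe set had the higher mean over all arrays. The ranks given to Col9a2 and Col8a1 therefore depend on choosing probe sets on the log2 scale. The third probe set stayed between 17 and 19. Oocyte markers had lower means at 2 months than at day 25 for 10 of 10 genes, with a median of -1.96, or -0.71 without older mutant replicate 1. Granulosa markers were lower for 6 of 9, with a median of -0.14. The part of these markers in the collagen values was not tested. Markers of endothelium (12 of 12), leukocytes (10 of 10) and surface epithelium (6 of 6) had higher means at 2 months than at day 25, as did 8 of 12 stromal markers. Without older mutant replicate 1, higher means were left for 11 of 12 endothelial, 1 of 10 leukocyte, 4 of 6 surface epithelium and 5 of 12 stromal markers, and the leukocyte median turned from 0.64 to -0.17 and the stromal median from 0.14 to -0.12. Each of these 4 lists had its highest median on replicate 1 of the older mutants, the array with the highest Col14a1 and Col8a1 values, and their part in those values was not tested.

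The fibrillar class was lower with age for 10 of 11 genes, with a median log2 difference of -0.23. Among the 10 were the dim chains Col2a1, Col5a3, Col11a2 and Col24a1, with log2 differences of -0.26 to -0.04. Without older mutant replicate 1 the class was lower for 11 of 11, and without replicate 2 for 8 of 11. Col1a1 was 852 and 848 at day 25 and 529 and 565 at 2 months, and Col1a2 was 7741 and 10022 against 6145 and 6504. Col3a1 was 7084 and 7379 against 6198 and 6053. In each of these 3 genes both 2-month arrays lay below both day 25 arrays, with log2 differences of -0.64 ± 0.36, -0.48 ± 0.29 and -0.24 ± 0.21. That of Col1a2 was -0.29 without young mutant replicate 2. The older mutant values of all 3 lay inside the range of the wild-type replicates. The second Col1a1 probe set gave 377 and 378 against 233 and 244, with 440 and 279 in wild type.

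Type IV chains were split with age, with 3 higher and 3 lower means and a median of -0.03. Col4a1 was among the lower, with -0.17 on its brightest probe set, whereas its other probe set gave 0.12. Without older mutant replicate 1 the median was -0.23, with 6 of 6 lower, and without replicate 2 it was 0.29. Col12a1 was 194 and 244 at day 25 and 162 and 140 at 2 months, a log2 difference of -0.53 ± 0.18, and the older values lay within the wild-type range of 140 to 175. Its other probe sets were dim, with -0.03, 0.17 and 0.11 between mutant ages. Against wild type at day 25 they gave -0.08, 0.10 and 0.00. Col18a1, whose cleavage yields endostatin, was 679 and 384 in wild type, 262 and 802 in young mutants, and 311 and 287 in older mutants. Its young mutant replicates differed by more than 2-fold. Between mutant ages its log2 difference was -0.62 ± 0.59, -1.42 without young mutant replicate 1 and 0.19 without young mutant replicate 2.

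Set against wild type, older mutants had 24 collagen genes with higher and 18 with lower means, with 55.0% and 43.8% of all genes. The median was 0.06 against 0.04 over all genes, and without older mutant replicate 1 there were 19 higher and 21 lower means. This comparison shares arrays with both others. At an unadjusted p under 0.05 by limma 2 were higher (Col8a1 and Col14a1) and 4 lower (Col9a2, Col27a1, Col6a4 and Col5a2), where 9.53% and 5.36% of all genes were so, and 0 passed over all probe sets. More than 2-fold were 2 higher (Col8a1 and Col14a1) and 3 lower (Col9a2, Col6a4 and Col27a1), where 3.59% and 1.56% of all genes were. Log2 differences were 2.06 ± 0.55 for Col8a1 and 2.12 ± 0.36 for Col14a1. They were -1.36 ± 0.16 for Col27a1, -1.51 ± 0.23 for Col6a4 and -0.60 ± 0.15 for Col5a2. At that p, dropping wild-type replicate 1 gave 6 higher and 4 lower, with 4.25% and 2.74% of all genes in that fit, and dropping wild-type replicate 2 gave 1 and 5, with 5.90% and 3.50%. Dropping older mutant replicate 1 gave 2 and 5, with 7.75% and 4.41%, and dropping older mutant replicate 2 gave 7 and 3, with 15.6% and 14.4%. Without older mutant replicate 1, Col8a1 had a difference of 1.28 and Col14a1 of 1.63.

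**Figure D4:**
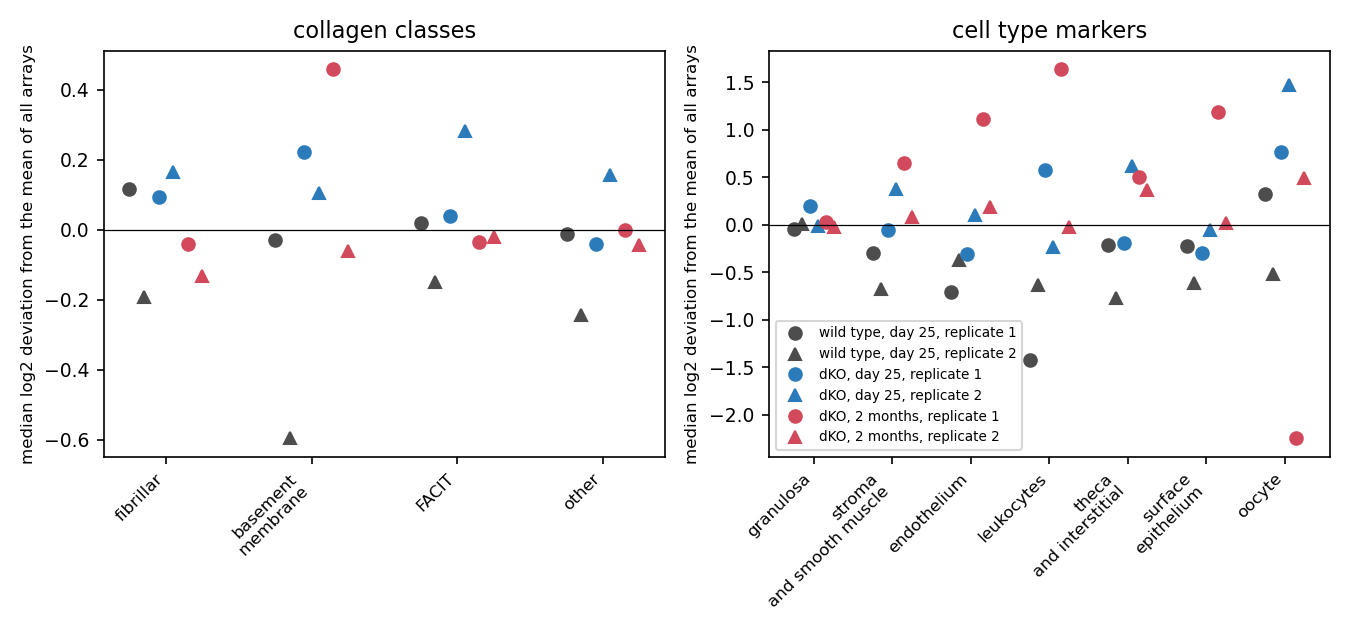
Median log2 deviation from the mean of all arrays (vertical axes) is shown per array for the 4 collagen classes on the left and 7 marker lists on the right, with the vertical scales differing. For type IV chains wild-type replicate 2 is lowest at -0.60 and older mutant replicate 1 highest at 0.46, and on the right that mutant array is highest for stroma, endothelium, leukocytes and surface epithelium and lowest for oocyte markers.

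The remaining collagen genes had smaller differences or overlapped. Among fibrillar chains, Col5a1, the partner of Col5a2, was 686 and 508 in wild type, 560 and 688 in young mutants, and 620 and 461 in older mutants. Col5a3, Col11a2 and Col24a1 were dim, with values of 20 to 26, 23 to 30 and 10 to 16. Among FACITs, Col16a1 was 287 and 195, 255 and 351, and 415 and 247, and Col20a1 was 132 and 199, 169 and 130, and 261 and 153, with overlap in every comparison. Col19a1 ranged from 21 to 31 and Col22a1 from 39 to 57.

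Of the multiplexins, Col15a1, a chain of the basement membrane zone around vessels and muscle, was 156 and 85 in wild type, 165 and 178 in young mutants, and 175 and 162 in older mutants. All 4 mutant arrays were above wild type, by little over replicate 1. Col7a1 ranged from 103 to 116, Col13a1 from 33 to 59, Col17a1 from 16 to 21, Col23a1 from 33 to 58 and Col25a1 from 115 to 125. Col26a1 was 83 and 38, 68 and 127, and 58 and 85, with overlap in every comparison.

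Genes that fold, trim, cross-link and degrade collagen were examined beside the chains. The shares of all genes given above (54.7% with a higher mean, 4.88% and 3.43% at an unadjusted p under 0.05 for young mutants against wild type) are the background for the counts of these lists too. Of 20 genes of collagen biosynthesis and folding, 19 were measured, and 16 had higher means in young mutants, 2 of them at an unadjusted p under 0.05, while 3 were lower. The median log2 difference was 0.15. Without young mutant replicate 1 there were 10 higher and 9 lower means and a median of 0.00, and without young mutant replicate 2 the median was 0.34. The count at that p was not kept in these fits, and the share of all genes changed too. P3h2, a prolyl 3-hydroxylase that acts on type IV collagen, was 717 and 633 in wild type, 1433 and 858 in young mutants, and 1279 and 1155 in older mutants. All 4 mutant arrays were above wild type, as they were for the type IV chains alpha2, alpha3 and alpha4, and the day 25 difference was 0.72 ± 0.26. Fkbp14, a peptidyl-prolyl isomerase of the endoplasmic reticulum, was 840 and 927, 1116 and 1067, and 1325 and 1318. Plod2, a lysyl hydroxylase, ran the other way with -0.36 ± 0.18 at day 25 and -0.57 ± 0.18 at 2 months against wild type. With age the list had 10 higher and 9 lower means, and 1 each at an unadjusted p under 0.05, the lower being P4ha3 and the higher Fkbp14. That even split joins opposite results, since without young mutant replicate 1 there were 15 higher and 4 lower, with a median of 0.26, and without young mutant replicate 2 there were 5 and 14, with -0.19.

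Of 14 maturation and cross-linking genes, 11 were measured, with 7 higher and 4 lower means at day 25, and 3 higher at an unadjusted p under 0.05. Pcolce, the enhancer of procollagen C-proteinase, was 3137 and 2957 in wild type, 5085 and 4487 in young mutants, and 5788 and 5892 in older mutants. The 3 groups did not overlap, and the log2 difference was 0.65 ± 0.11 at day 25 and 0.94 ± 0.11 at 2 months against wild type, adjusted p = 0.474 and 0.139. Lox, the lysyl oxidase that cross-links fibrils, was 794 and 308 in wild type, 359 and 174 in young mutants, and 83 and 132 in older mutants. Its 2-month values were below all others, with -2.23 ± 0.60 against wild type. Adamts3, a procollagen N-proteinase, was 37 and 29, 63 and 90, and 36 and 56, and Loxl1 had 1.31 ± 0.49 at day 25. Pxdn, the peroxidase that cross-links type IV collagen, had -0.97 ± 0.33 at 2 months against wild type. With age 5 genes of the list had higher and 6 lower means, with a median of -0.12, which was 0.05 without young mutant replicate 1.

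Among 14 measured genes of collagen turnover, of 15 listed, 12 had higher means in young mutants and 9 had higher means at 2 months than at day 25. The medians were 0.25 and 0.23. The first was 0.16 without wild-type replicate 2, with 9 of 14 higher, and the second 0.02 without older mutant replicate 1, with 8 of 14 higher. Ctsk, a cysteine protease that cleaves fibrillar collagen, was 153 and 163 in wild type, 401 and 365 in young mutants, and 995 and 430 in older mutants. Timp3, an inhibitor of matrix metalloproteinases bound to matrix, was 392 and 551, 603 and 1000, and 3288 and 1190. Both were highest on older mutant replicate 1. Timp1, a secreted inhibitor, had 0.41 ± 0.16 at day 25 and 0.78 ± 0.16 at 2 months against wild type, and the endocytic collagen receptor Mrc2 had 0.51 ± 0.23 at day 25.

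Of 10 collagen receptors, 9 were measured, with 6 higher and 3 lower means at day 25 and the same counts with age. The counts with age were 5 and 4 when older mutant replicate 1 was left out. Itga2, the integrin chain that binds fibrillar collagen, was 106 and 76 in wild type, 47 and 53 in young mutants, and 50 and 49 in older mutants, a day 25 difference of -0.83 ± 0.18, adjusted p = 0.482. Neither mutant group overlapped wild type. Ddr1, a receptor tyrosine kinase for collagen, was 4805 and 4343, 5749 and 5248, and 6966 and 6333. Its 3 groups did not overlap.

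All 12 fibril-associated genes were measured, and 10 had higher means in young mutants, with 4 at an unadjusted p under 0.05 and a median log2 difference of 0.40. Without young mutant replicate 1 the median was 0.74. The count at that p changed when single arrays were left out, and so did the share of all genes. Fmod, fibromodulin, a small proteoglycan that binds type I collagen, was 231 and 203 in wild type, 430 and 381 in young mutants, and 325 and 295 in older mutants. All mutant arrays were above wild type, with 0.90 ± 0.13 at day 25, adjusted p = 0.404, and -0.39 ± 0.13 with age. Prelp, a proteoglycan that ties basement membrane to connective tissue, had 0.89 ± 0.22 at day 25 and 1.09 ± 0.22 at 2 months against wild type. Thbs2, a matricellular protein that affects fibril assembly, was 124 and 111, 403 and 450, and 2783 and 443, so that its 2-month mean rests on replicate 1. With age 9 of the 12 had higher means and 3 lower, with a median of 0.18. Leaving out older mutant replicate 1 turned this to 3 higher and 9 lower, with a median of -0.16, and without older mutant replicate 2 the median was 0.62. Sparc, which binds collagen and is a chaperone of it, was 3601 and 4201 in wild type, 7381 and 6158 in young mutants, and 8922 and 7304 in older mutants. Ogn, the proteoglycan osteoglycin, was 1275 and 1390, 3967 and 4219, and 9223 and 3823 in the same groups. For both genes every mutant array exceeded wild type. Endothelial, leukocyte and stromal marker sums were higher on the same arrays, and their part in the values of these lists was not tested. Lum is in both the stromal and the fibril-associated list, so those are not independent.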

How the data were processed

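Each RNA sample was run on its own Affymetrix array. The authors deposited 1 intensity for each probe set, a whole number on a linear scale, and the submitters' processing notes name affy and RMA; versions, rounding and genome build are not given in the sources used here. RMA aligns the arrays, so a shift of most genes would not be seen.

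Values were taken as log2(value + 1), which understates changes of dim genes. Leaving out 64 AFFX controls, 45037 probe sets entered 1 limma fit (limma 3.58.1, R 4.3.3) with a mean per group, and 3 two-sided contrasts were moderated by empirical Bayes. Of these probe sets 34945 had 1 gene symbol, 932 several and 9160 none. All 42 collagen gene IDs matched RefSeq (GRCm38.p6). The number of arrays limits the precision, and no label ties the replicates to separate animals, so the p-values reflect no more than how far these samples lie apart. Named were genes at an unadjusted p under 0.05, the 5 largest differences among genes not dim, their trimer or promoter partners, and up to 3 genes of smallest p per further list. Members and lists were chosen with earlier results of these data known. Fkbp10, Adamts2, Adamts14, Loxl2, Mmp15, Itga11, Insl3 and Lhcgr were not analysed here. On simulated data of the day 25 comparison with 45037 probe sets, limma recovered 36% of 2-fold and 90% of 4-fold changes. It also made 12 false calls. The simulated noise was independent and normal, with each probe set's moderated spread, so these shares need not hold for the real arrays. On those arrays 0 probe sets passed an adjusted p of 0.05. The alternatives tried were centring each array, quantile normalization once more, a pseudocount of 16, leaving out dim probe sets and a trended robust prior. Further ones were fitting only the 4 arrays compared, averaging a gene's probe sets, blocking on the replicate number and omitting single arrays. In another, probe sets with names ending in _s_at, _x_at or _a_at were dropped.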

Additional observations from a re-analysis of the deposited data

How the results depend on the processing

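Array centring, repeated quantile normalization, an intensity trend with a robust prior and the replicate block moved no collagen median by more than the spread between replicates and no count by over 1.5 times. The block left the day 25 median at 0.19, and replicate numbers did not pair the samples, with correlations of replicate deviations of -0.16, -0.21 and 0.06 between groups. In every alternative, single arrays left out included, 0 collagen genes passed an adjusted p of 0.05. The FACIT median was 0.066 between mutant ages and 0.075 for older mutants against wild type with the mean of a gene's probe sets. With dim probe sets left out it was 0.35 for that last comparison and 0.40 at day 25. At day 25 it was 0.079 without probe sets ending in _s_at, _x_at or _a_at. The median of other chains at day 25 was 0.23 with the mean of a gene's probe sets. At an unadjusted p under 0.05, a pseudocount of 16 gave 2 genes higher at day 25. Fitting only the 4 arrays compared gave 4 lower there, and 0 higher and 5 lower between mutant ages. The share of all genes at that p is not given for these fits. These counts therefore cannot be read as a change of the collagen genes in particular. Without dim probe sets, 28 collagen genes remained, with 19 lower between mutant ages and 11 lower for older mutants against wild type, since fewer genes were counted.

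With each array left out, the day 25 medians ranged from 0.10 to 0.31 over all collagen genes, 0.094 to 0.34 for FACITs and -0.017 to 0.38 for other chains. Those between mutant ages ranged from -0.23 to -0.028 over all, -0.23 to 0.29 for type IV and -0.20 to 0.029 for other chains, with 7 to 19 genes higher. Those for older mutants against wild type ranged from -0.052 to 0.12 for FACITs and 0.033 to 0.24 for other chains. Counts at an unadjusted p under 0.05 ranged from 1 to 9 higher and 2 to 4 lower at day 25, 0 to 3 and 1 to 6 between mutant ages, and 1 to 7 higher for older mutants against wild type. Col18a1 between mutant ages, -0.62 with all arrays, ranged from -1.42 to 0.19, the latter without young mutant replicate 2.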
